A study of Mus musculus with 12 samples.

Results

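The transcripts of 9 genes that bring glucose into the cell, trap it and store it as glycogen were compared between the hearts of 6 control and 6 Sdhaf4-deficient mice. The genes, chosen by symbol, were Slc2a1 and Slc2a4 (uptake), Hk1 and Hk2 (phosphorylation), Gys1 and Gbe1 (glycogen synthesis), Pygm and Pygb (glycogen breakdown) and Ppp1r3c (targeting of the glycogen phosphatase), and they are 9 of the 43686 rows of the count table. SDHAF4 helps to assemble complex II of the respiratory chain. The control mice (WT) carried floxed Sdhaf4 alleles without Cre (Sdhaf4fl/fl), and in the mutants (KO; Sdhaf4fl/fl, Ckmm-Cre) the muscle creatine kinase promoter drove Cre in both heart and skeletal muscle. The labels give the mutant genotype as Sdhaf4-/-, the strain of all 12 mice as C57BL/6 and the age of both groups as 2 months, whereas the study's results text gives a younger age for these hearts, its reporting summary allows that of the labels, and its methods give the C57BL/6J substrain. The RNA came from ventricular wall, so every value is an average over all cells of the tissue, and fewer cells of a type cannot be told apart from less RNA per cell.

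Glucose enters cardiac muscle through GLUT1, the carrier of basal uptake, and GLUT4, which moves to the cell surface in response to insulin or contraction. Hexokinases phosphorylate the sugar, which keeps it in the cell, and the phosphate is then either burnt by glycolysis or passed through UDP-glucose into glycogen, which glycogen synthase lengthens and the branching enzyme branches. Glycogen phosphorylase releases glucose phosphate again, and regulatory subunits that tether protein phosphatase 1 to the glycogen particle activate the synthase and inactivate the phosphorylase.

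The KO hearts had more transcript of the branching enzyme Gbe1, of Ppp1r3c and of Hk1, with fold changes of 4.12, 2.98 and 2.55 over WT, and smaller rises of Slc2a1 and Hk2, each of 1.48-fold. Transcripts of Pygm, the muscle isoform of glycogen phosphorylase, fell to 0.666 of the WT level. By the quasi-likelihood test of edgeR, with adjustment over 17155 rows, 6 of the 9 genes were higher and 2 lower in KO (adjusted p under 0.05), and 1, Pygb, did not pass. The same threshold called 51.1% of all rows tested, 25.6% higher and 25.5% lower. The median log2 fold change of the 9 genes was 0.56, against 0.00 over all rows tested, and their median absolute log2 fold change was 0.57, against 0.30. The 9 genes were chosen with earlier results of these data known, so these medians only describe them. At the stricter thresholds of the study's methods, an adjusted p of 0.005 with an absolute log2 fold change over 1, 3 of the 9 were higher (Gbe1, Ppp1r3c and Hk1) and 0 lower, beside 5.36% and 4.87% of all rows. The 6 KO values lay wholly above the 6 WT values for 5 of the 9 genes and wholly below for 1, and this was so for 14.9% and 15.2% of all rows. When KO replicates 3 and 6 were both left out, 5 were higher and 2 lower.

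**Figure D1:**
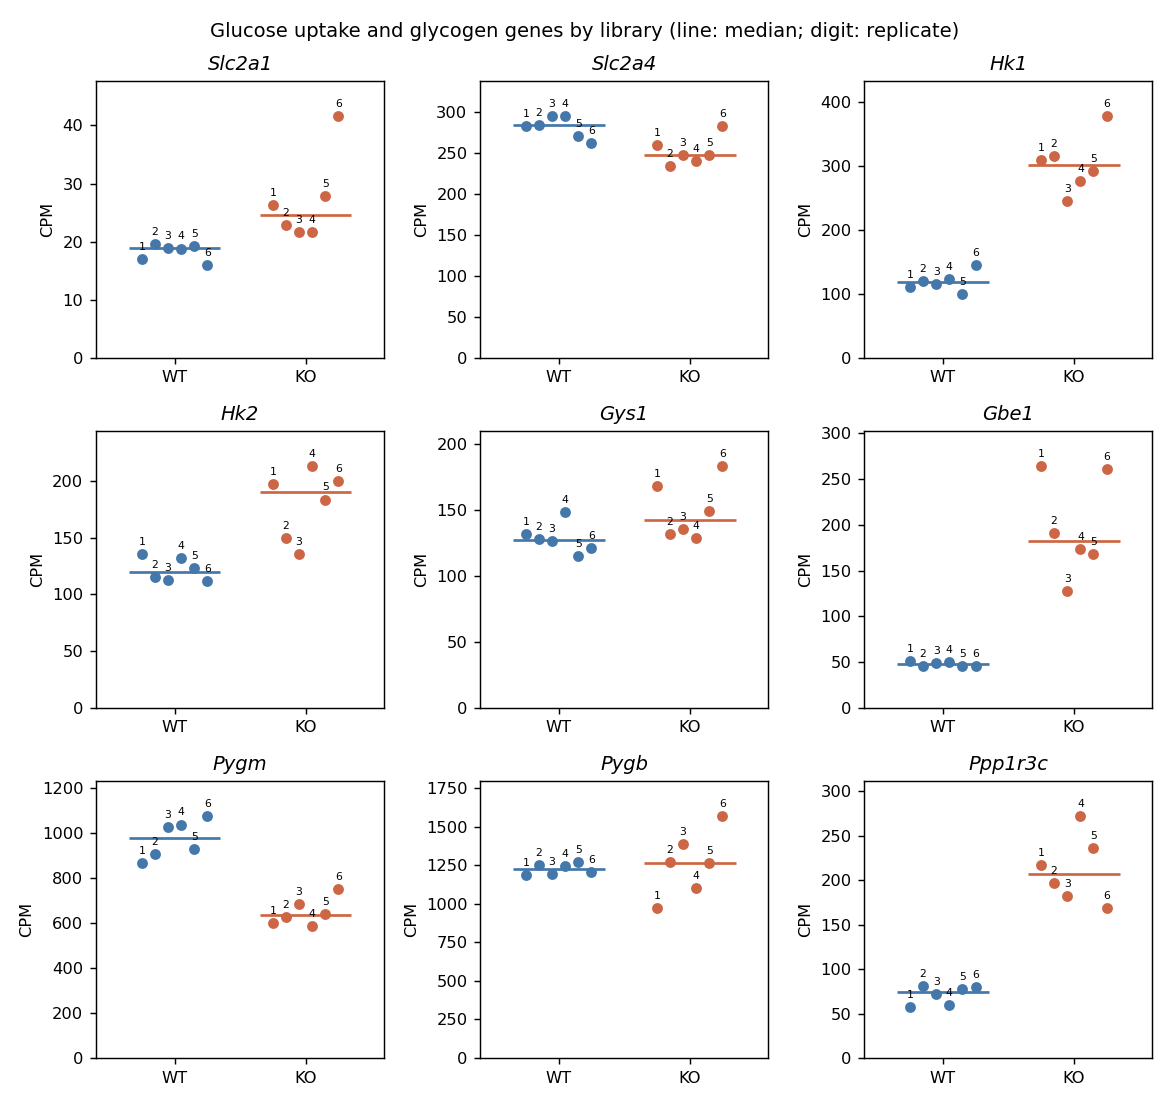
Counts scaled to library size (CPM, TMM normalized) of each of the 9 genes in each of the 12 libraries, with WT in blue, KO in orange, the replicate number above each point and a line at the group median; each vertical axis starts at 0. Gbe1, Ppp1r3c, Hk1, Slc2a1 and Hk2 separate upward and Pygm downward, whereas the groups overlap for Slc2a4, Gys1 and Pygb; KO replicate 6 holds the highest Slc2a1 value, 41.7 CPM.

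As a check of the genotype, Sdhaf4 was at 14.3 to 30.3 CPM (library-size-scaled counts after TMM normalization, the scale of all CPM values below unless stated) in WT and at 2.25 to 2.73 CPM in KO, a log2 fold change of -3.39 (standard error 0.16, edgeR adjusted p = 1.95e-10). Libraries held 23747014 to 27159228 counts in WT and 26542930 to 31393393 in KO. The summed markers of ventricular cardiomyocytes, scaled to library size, were at 63515 to 69448 CPM in WT and 48008 to 63986 CPM in KO, with 6 of 10 markers lower at an adjusted p under 0.05 and none higher, beside 25.5% and 25.6% of all rows. All 7 fibroblast markers were higher in KO, beside 25.6% of all rows, and their sum was 1361 to 1657 CPM in WT and 2233 to 4365 CPM in KO. Endothelial markers summed to 1274 to 1486 CPM in WT and 1322 to 1658 CPM in KO, smooth muscle and pericyte markers to 1191 to 1460 and 1194 to 1668 CPM, leukocyte markers to 86.4 to 117 and 74.2 to 125 CPM, and erythroid markers to 289 to 990 and 592 to 1265 CPM. Atrial markers summed to 17.9 to 19.96 CPM in WT and 26.0 to 36.1 CPM in KO, adipocyte markers to at most 1.41 CPM and skeletal muscle markers to at most 11.9 CPM in any library. The median over libraries was under 1 CPM for 3 of the 5 atrial, all 6 adipocyte and all 7 skeletal muscle markers. The part of the fibroblast and cardiomyocyte shifts in the changes of the 9 genes was not tested.

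The promoters of the 5 genes that separated upward are shown first, because several of these genes are known targets of the hypoxia-inducible factors, which bind DNA at ACGTG or GCGTG, the core of the hypoxia response element. Each line gives the 250 bases before a transcription start, 5′ to 3′ on the strand of the gene, from RefSeq on GRCm38.p6, an assembly other than that of the count table, and capitals mark ACGTG and GCGTG on either strand (CACGT and CACGC when read from the opposite strand).
Slc2a1 (chr4:119108495-119108744, plus strand): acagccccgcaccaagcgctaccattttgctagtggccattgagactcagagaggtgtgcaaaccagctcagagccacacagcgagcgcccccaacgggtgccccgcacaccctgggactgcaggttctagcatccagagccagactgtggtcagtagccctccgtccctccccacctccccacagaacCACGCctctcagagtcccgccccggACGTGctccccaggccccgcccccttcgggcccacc
Hk1, upstream start (chr10:62379909-62380158, minus strand): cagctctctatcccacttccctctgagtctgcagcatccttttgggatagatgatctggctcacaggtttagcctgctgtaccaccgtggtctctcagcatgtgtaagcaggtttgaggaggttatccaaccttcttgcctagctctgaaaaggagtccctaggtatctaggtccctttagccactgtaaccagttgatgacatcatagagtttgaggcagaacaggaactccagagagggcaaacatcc
Hk1, downstream start (chr10:62340422-62340671, minus strand): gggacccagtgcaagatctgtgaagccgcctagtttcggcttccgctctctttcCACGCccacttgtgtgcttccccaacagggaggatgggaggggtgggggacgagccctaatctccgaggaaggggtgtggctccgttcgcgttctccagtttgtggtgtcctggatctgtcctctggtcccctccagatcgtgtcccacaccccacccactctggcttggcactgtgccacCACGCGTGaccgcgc
Hk2 (chr6:82774455-82774704, minus strand): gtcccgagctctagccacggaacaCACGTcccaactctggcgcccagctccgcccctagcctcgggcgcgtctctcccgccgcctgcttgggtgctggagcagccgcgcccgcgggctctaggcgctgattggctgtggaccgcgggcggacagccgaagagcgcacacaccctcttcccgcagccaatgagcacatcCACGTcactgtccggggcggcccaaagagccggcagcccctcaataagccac
Gbe1 (chr16:70313699-70313948, plus strand): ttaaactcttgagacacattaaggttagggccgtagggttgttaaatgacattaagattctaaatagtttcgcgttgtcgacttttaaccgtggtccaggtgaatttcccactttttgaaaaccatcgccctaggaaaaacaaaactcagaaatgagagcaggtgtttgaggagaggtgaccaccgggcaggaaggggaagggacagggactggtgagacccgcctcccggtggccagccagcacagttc
Ppp1r3c (chr19:36736605-36736854, minus strand): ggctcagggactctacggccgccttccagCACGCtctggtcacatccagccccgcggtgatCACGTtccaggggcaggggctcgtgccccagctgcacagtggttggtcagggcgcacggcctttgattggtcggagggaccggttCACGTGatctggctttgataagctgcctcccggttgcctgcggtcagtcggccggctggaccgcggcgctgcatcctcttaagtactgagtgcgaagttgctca

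Slc2a1 held 1 ACGTG, which starts 36 bases before the transcription start, and 1 GCGTG on the opposite strand. Hk2 held 2 ACGTG, both on the opposite strand. Hk1 has 2 listed starts, and the window of the downstream start held 3 GCGTG, of which a pair overlap close to the start, whereas the window of the upstream start held none. Ppp1r3c held 1 GCGTG and 3 ACGTG, and a pair of these are the opposite strands of 1 CACGTG. Gbe1, the gene with the largest fold change, held neither motif in its window. Windows were listed for 8 of the 9 genes (9 windows), and 6 windows of 6 genes held ACGTG or GCGTG: those of Slc2a1, Hk1, Hk2, Ppp1r3c, Pygm and Pygb. The Gys1 window held neither motif. The bases that follow it were not found near the start of a known Gys1 transcript, so that start is uncertain. Of the 32851 mouse windows of this length, 38.6% held at least 1 of the motifs, 16.6% ACGTG, 28.2% GCGTG and 6.02% CACGTG. Pygm, which fell, and Pygb, which did not pass the test, each held 1 of each motif. A motif match alone does not show binding, and neither binding nor activity of the hypoxia-inducible factors was tested.

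For uptake, Slc2a1 and Slc2a4 were compared. Slc2a1 (GLUT1; MGP_C57BL6NJ_G0029111, chromosome 4, 124860054 to 124889326, plus strand of the C57BL/6NJ assembly, as are all gene positions below) ranged from 16 to 19.6 CPM in WT with a median of 18.8 CPM, and from 21.6 to 41.7 CPM in KO with a median of 24.6 CPM. KO replicate 6 stood far above the other KO hearts, of which the next was at 27.9 CPM, yet even the lowest KO heart was above the highest WT heart. The log2 fold change was 0.57 (standard error 0.14, edgeR adjusted p = 0.00416). Without KO replicate 6 it was 0.40. Another 3 unnamed rows lie within its span, the largest with 2.01% of its counts. KO replicate 6 had the lowest fibroblast marker sum of the KO hearts, 2233 CPM, and the part of this in its Slc2a1 level was not tested.

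Slc2a4 (GLUT4; MGP_C57BL6NJ_G0018962, chromosome 11, 72557771 to 72563407, minus strand) ranged from 262 to 296 CPM in WT with a median of 284 CPM, and from 234 to 283 CPM in KO with a median of 248 CPM. The groups overlapped, since KO replicate 6 reached the level of the WT hearts, and the other 5 KO hearts lay below all WT hearts. Its log2 fold change was -0.16 (standard error 0.05, edgeR adjusted p = 0.0184), a small fall beside the rise of Slc2a1. The adjusted p was 0.0513 without KO replicate 2.

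Hk1 and Hk2 encode the hexokinases of the heart, of which Hk2 is the insulin-responsive form of adult muscle. Hk1 (MGP_C57BL6NJ_G0017691, chromosome 10, 63906320 to 64023907, minus strand) ranged from 99.5 to 145 CPM in WT with a median of 118 CPM, and from 246 to 379 CPM in KO with a median of 301 CPM. The groups were far apart: WT replicate 6, the highest of its group, lay well below KO replicate 3, the lowest of the KO hearts. Its log2 fold change was 1.35 (standard error 0.10, edgeR adjusted p = 3.97e-08), and 3.73% of the rows tested had a higher fold change. The unnamed row within its span had 0.0912% of its counts.

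Hk2 (MGP_C57BL6NJ_G0031345, chromosome 6, 85971729 to 86023093, minus strand) ranged from 111 to 135.3 CPM in WT with a median of 119 CPM, and from 135.4 to 213 CPM in KO with a median of 190 CPM. The groups met without overlapping, with KO replicate 3 just above WT replicate 1, while KO replicates 1, 4, 5 and 6 lay well above all WT hearts. The log2 fold change was 0.56 (standard error 0.10, edgeR adjusted p = 0.000286). KO replicate 3, the lowest KO heart for both hexokinases, had a cardiomyocyte marker sum of 63986 CPM, the only KO value within the WT range, and a fibroblast marker sum of 2275 CPM. KO replicate 6, with a fibroblast marker sum of 2233 CPM, was the highest KO heart for Hk1. The part of these sums in the hexokinase values was not tested.

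Among the synthesis genes, Gbe1 had the largest change of the 9. Gbe1 (the branching enzyme; MGP_C57BL6NJ_G0023367, chromosome 16, 72312458 to 72594969, plus strand) ranged from 45.8 to 50.7 CPM in WT with a median of 47.3 CPM, and from 127 to 265 CPM in KO with a median of 183 CPM. The WT hearts were nearly equal, whereas the KO hearts spread widely, with replicates 1 and 6 high and replicate 3 low, and every KO heart was above every WT heart. The log2 fold change was 2.04 (standard error 0.16, edgeR adjusted p = 3.88e-07), and 1.43% of the rows tested had a higher fold change. The coefficient of variation was 4.82% in WT and 27.7% in KO.

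Gys1 (muscle glycogen synthase; MGP_C57BL6NJ_G0032705, chromosome 7, 47961303 to 47989265, plus strand) ranged from 115 to 148 CPM in WT with a median of 127 CPM, and from 129 to 183 CPM in KO with a median of 142 CPM. The groups overlapped, and KO replicates 1 and 6 were the hearts that stood above the rest. The log2 fold change was 0.22 (standard error 0.09, edgeR adjusted p = 0.0457), and in 8 of the 12 fits with a library left out it no longer passed, with an adjusted p up to 0.109 and a log2 fold change of 0.15 without KO replicate 6. Its span overlaps Ruvbl2, whose counts were 13.9% of those of Gys1, and since the sources used here do not say whether strand was used in counting, reads in the shared stretch could belong to either.

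The phosphorylases release glucose phosphate from glycogen, and Pygm and Pygb (the muscle and brain isoforms) are both transcribed in the heart. Pygm (MGP_C57BL6NJ_G0025174, chromosome 19, 3491444 to 3505092, plus strand) ranged from 866 to 1076 CPM in WT with a median of 978 CPM, and from 588 to 752 CPM in KO with a median of 634 CPM. All KO hearts lay below all WT hearts, with KO replicate 6 the nearest to them. Its log2 fold change was -0.59 (standard error 0.07, edgeR adjusted p = 3.23e-06), and 13% of the rows tested had a lower fold change. The cardiomyocyte marker list moved in the same direction, with a median log2 fold change of -0.30, and its part in the fall of Pygm was not tested.

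Pygb (MGP_C57BL6NJ_G0027056, chromosome 2, 159773237 to 159820163, plus strand) ranged from 1186 to 1271 CPM in WT with a median of 1225 CPM, and from 975 to 1571 CPM in KO with a median of 1265 CPM. The KO hearts fell on both sides of the narrow WT range, with replicates 1 and 4 below it and replicates 3 and 6 above it. The log2 fold change was 0.04 (standard error 0.09, edgeR adjusted p = 0.735), and its sign turned when KO replicate 6 was left out. The coefficient of variation of Pygb was 2.87% in WT and 16.6% in KO.

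Ppp1r3c encodes a subunit, also called PTG, that holds protein phosphatase 1 on glycogen. Ppp1r3c (MGP_C57BL6NJ_G0025488, chromosome 19, 36661711 to 36666627, minus strand) ranged from 57 to 80.7 CPM in WT with a median of 74.6 CPM, and from 169 to 273 CPM in KO with a median of 207 CPM. Every KO heart was above every WT heart by a wide margin, and KO replicate 6, high for most of the other genes, was here the lowest of its group. The log2 fold change was 1.58 (standard error 0.13, edgeR adjusted p = 2.05e-07), and 2.70% of the rows tested had a higher fold change. No other row overlaps Ppp1r3c, Gbe1, Pygm, Pygb or Slc2a4.

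KO replicate 6 was the highest of the KO hearts for 6 of the 9 genes (Slc2a1, Slc2a4, Hk1, Gys1, Pygm and Pygb), and no other heart of either genotype was the highest of its group for more than 2. KO replicate 3 was the lowest KO heart for 3 genes (Hk1, Hk2 and Gbe1), as was KO replicate 4 (Slc2a1, Gys1 and Pygm), and WT replicates 1, 5 and 6 were each the lowest WT heart for 3. The coefficient of variation was larger in KO than in WT for all 9 genes, from 6.89% (Slc2a4) to 28.3% (Slc2a1) in KO and from 2.87% (Pygb) to 14.6% (Ppp1r3c) in WT. This difference in spread was not tested. Neither the order of the replicates nor the spread was counted over all rows tested, so neither can be called particular to these genes.

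The balance within each pair of related genes was examined next on FPKM (fragments scaled to gene length and library size). Genes can be compared on this scale only as far as the lengths used are right. The ratio of the FPKM of 2 genes in the same library does not depend on how the libraries were scaled. Slc2a1 made up 4.46% to 5.25% of the summed FPKM of Slc2a1 and Slc2a4 in the WT hearts, with a median of 4.73%, and 6.37% to 10.3% in the KO hearts, with a median of 7.20%. GLUT4 transcripts thus remained the main form in all 12 hearts, and the KO shares were all above the WT shares. The log2 ratio of Slc2a1 to Slc2a4 was higher by 0.69 in KO (p = 0.00216 in a two-sided exact permutation test and 0.00325 adjusted over the 3 pairs), and 6 against 6 hearts allow no smaller p.

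Hk1 made up 49.0% to 60.8% of the summed FPKM of Hk1 and Hk2 in the WT hearts, with a median of 53.8%, and 60.7% to 71.6% in the KO hearts, with a median of 67.0%. The groups overlapped at a single point, where the highest WT heart slightly exceeded the lowest KO heart. The log2 ratio of Hk1 to Hk2 was higher by 0.80 in KO (two-sided exact permutation test, p = 0.00433, and 0.00433 adjusted over the 3 pairs).

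Pygb made up 58.1% to 63.1% of the summed FPKM of Pygb and Pygm in the WT hearts, with a median of 61.3%, and 66.9% to 72.1% in the KO hearts, with a median of 71.2%. The KO hearts again lay wholly above the WT hearts, although the level of Pygb itself did not pass the test between the groups. The log2 ratio of Pygb to Pygm was higher by 0.61 in KO (two-sided exact permutation test, p = 0.00216, and 0.00325 adjusted over the 3 pairs). These shares depend on the gene lengths used. The lengths behind the deposited FPKM values were below those in the table's own length column for 8 of the 9 genes, for example 1297 against 4278 bases for Hk1 and 1339 against 3909 bases for Pygb, whereas both are 2719 bases for Ppp1r3c. With the length column in their place, the median share in WT and KO was 5.87% and 8.88% for Slc2a1, 44.7% and 58.5% for Hk1, and 48.5% and 59.5% for Pygb, so that in WT the majority form of both the hexokinases and the phosphorylases depends on the length used. A difference in log2 ratio between the groups does not depend on it.

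**Figure D2:**
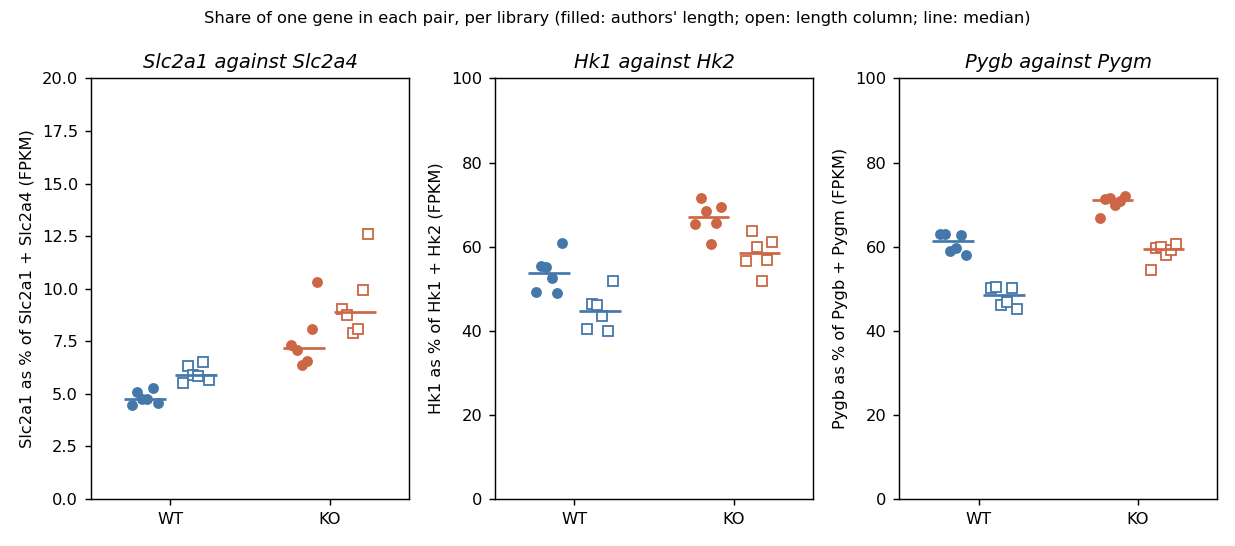
Share of the first gene in the summed FPKM of each pair, in percent, for each library, with WT in blue and KO in orange; filled circles use the deposited FPKM, open squares FPKM recomputed with the length column, and lines are medians, and the Slc2a1 panel has a shorter axis. The KO median is above the WT median in each pair and on both scales, for Slc2a1 7.20% against 4.73% on the deposited scale.

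On the deposited FPKM scale, the phosphorylases were the most abundant of the 9 transcripts in WT, with medians of 921 FPKM for Pygb and 584 FPKM for Pygm, followed by Slc2a4 with 215 FPKM. Hk1 (90.9 FPKM), Gys1 (81.5 FPKM) and Hk2 (76.9 FPKM) followed, and the ranges of neighbours among these 3 overlapped. Ppp1r3c (26.9 FPKM), Gbe1 (19.2 FPKM) and Slc2a1 (10.9 FPKM) were the lowest, each without overlap with the next. In KO the order changed in the middle. Hk1, with 236 FPKM, came before Slc2a4, with 187 FPKM, although their ranges overlapped. Below them came Hk2 (123 FPKM), Gys1 (90.7 FPKM), Ppp1r3c (77.1 FPKM) and Gbe1 (75.1 FPKM), and the ranges of each neighbouring pair among these 4 overlapped. Pygb (953 FPKM) and Pygm (386 FPKM) remained the highest and Slc2a1 (14.5 FPKM) the lowest. This order depends on the lengths used. With the length column, Pygm (337 FPKM) had a higher WT median than Pygb (316 FPKM), with overlapping ranges. On that scale Hk1 (71.4 FPKM) came after Slc2a4 (78.0 FPKM) and Ppp1r3c (77.1 FPKM) in KO, where neighbouring ranges also overlapped.

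**Figure D3:**
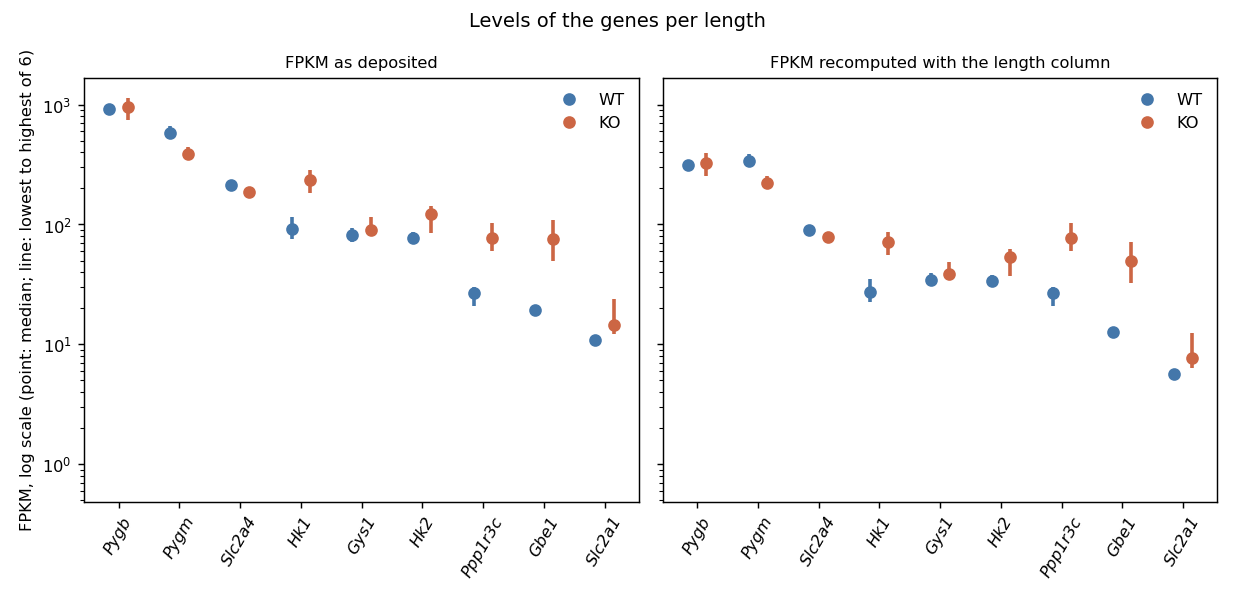
FPKM of the 9 genes on a log axis, as deposited (left) and recomputed with the length column (right), with points at the median of 6 hearts, lines from the lowest to the highest, WT in blue and KO in orange. On both scales Slc2a1 is the lowest, at a WT median of 10.9 FPKM as deposited, and Gbe1 and Ppp1r3c sit below Gys1 in WT and near it in KO or above it.

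The other genes of glucose uptake and glycogen metabolism were taken from a list of 67, of which 59 passed the filter on low counts. Of these, 17 were higher and 20 lower in KO at an adjusted p under 0.05 and 22 were not called, with a median log2 fold change of 0.02. Over all rows tested 25.6% were higher and 25.5% lower, together 51.1%, and the counts of the role groups below, each of at most 14 genes, are to be read against these shares. Among the 6 other sugar transporters tested, 1 was higher and 3 were lower (25.6% and 25.5% of all rows). Slc2a12, which encodes GLUT12, fell from a median of 16.7 to 3.57 CPM (log2 fold change -2.07, standard error 0.13, edgeR adjusted p = 1.32e-09), with no overlap between the groups. Slc2a8, which encodes the intracellular carrier GLUT8, fell from 23.7 to 13.7 CPM (log2 fold change -0.69, edgeR adjusted p = 5.33e-06). Slc5a1, the sodium-coupled carrier SGLT1, was low in all hearts, with medians of 1.20 CPM in WT and 0.313 CPM in KO (log2 fold change -1.93, edgeR adjusted p = 0.000584).

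Of 14 genes of transporter traffic and turnover, 2 were higher and 4 lower (25.6% and 25.5% of all rows). Tbc1d4 (AS160), which holds GLUT4 vesicles inside the cell until insulin signalling releases them, fell from a median of 166 to 43.8 CPM (log2 fold change -1.85, standard error 0.09, edgeR adjusted p = 2.10e-10). The KO hearts, at 37.6 to 59.4 CPM, all lay far below the WT hearts, at 155 to 179 CPM. Myo1c, a myosin that assists the delivery of these vesicles to the surface, rose from 167 to 298 CPM (log2 fold change 0.75, edgeR adjusted p = 8.10e-08). Slc2a4 itself, the cargo, changed by -0.16 on the log2 scale.

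Of 8 genes of sugar phosphate metabolism, 4 were higher and 3 lower (25.6% and 25.5% of all rows), and the lower ones include Slc37a4, which encodes a carrier of glucose phosphate and not an enzyme (log2 fold change -0.22, edgeR adjusted p = 0.0421, named after its value was seen). Gpi1, which converts glucose phosphate into fructose phosphate, rose from 382 to 682 CPM (log2 fold change 0.89, edgeR adjusted p = 1.27e-07). The phosphoglucomutase gene Pgm2 rose from 293 to 425 CPM (log2 fold change 0.54, edgeR adjusted p = 3.52e-06). Of 4 other genes of glycogen synthesis and its control, 3 were higher and 0 lower (25.6% and 25.5% of all rows). These are Ugp2, Gyg and Gsk3b, and the last, named after its value was seen, encodes a kinase that inactivates glycogen synthase (log2 fold change 0.18). Ugp2, which makes the UDP-glucose used by glycogen synthase, rose from 245 to 539 CPM (log2 fold change 1.15, standard error 0.09, edgeR adjusted p = 1.62e-08), and Gyg, the glycogenin that primes the particle, had a log2 fold change of 0.30 (edgeR adjusted p = 0.000127).

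Of 9 other breakdown genes, 3 were higher and 4 lower (25.6% and 25.5% of all rows). The catalytic subunit of muscle phosphorylase kinase, Phkg1, went from a median of 34.8 to 3.29 CPM (log2 fold change -3.18, standard error 0.24, edgeR adjusted p = 3.14e-07), but its span overlaps Chchd2 and other rows, the largest with 1120% of its counts, so its change is uncertain. Phka1, the muscle form of the regulatory alpha subunit of that kinase, rose from 45.0 to 73.4 CPM (log2 fold change 0.64, edgeR adjusted p = 3.55e-07). Of 11 genes of the glycogen phosphatase and its regulators other than Ppp1r3c, 0 were higher and 4 were lower (25.6% and 25.5% of all rows). Ppp1r3d, another glycogen-targeting subunit, fell from 24.2 to 14.2 CPM (log2 fold change -0.77, edgeR adjusted p = 2.82e-06). Ppp1r3a, also a glycogen-targeting subunit and named after its value was seen, fell from a median of 180 to 104 CPM. Its log2 fold change was -0.62 (edgeR adjusted p = 0.00466), and the groups overlapped. Ppp1r3g, of the same family, was near the detection limit, with medians of 1.46 CPM in WT and 0.221 CPM in KO (log2 fold change -2.08, edgeR adjusted p = 0.00172).

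AMPK, the energy sensor that binds glycogen through its beta subunits, had 4 of its 7 subunit genes higher and 2 lower (25.6% and 25.5% of all rows). The beta subunits moved in opposite directions. Prkab1 fell from a median of 42.7 to 23.1 CPM (log2 fold change -0.88, edgeR adjusted p = 7.75e-08), and Prkab2 rose from 88.1 to 179 CPM (log2 fold change 0.95, edgeR adjusted p = 9.02e-08). For both, the KO and WT hearts did not overlap.

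**Figure D4:**
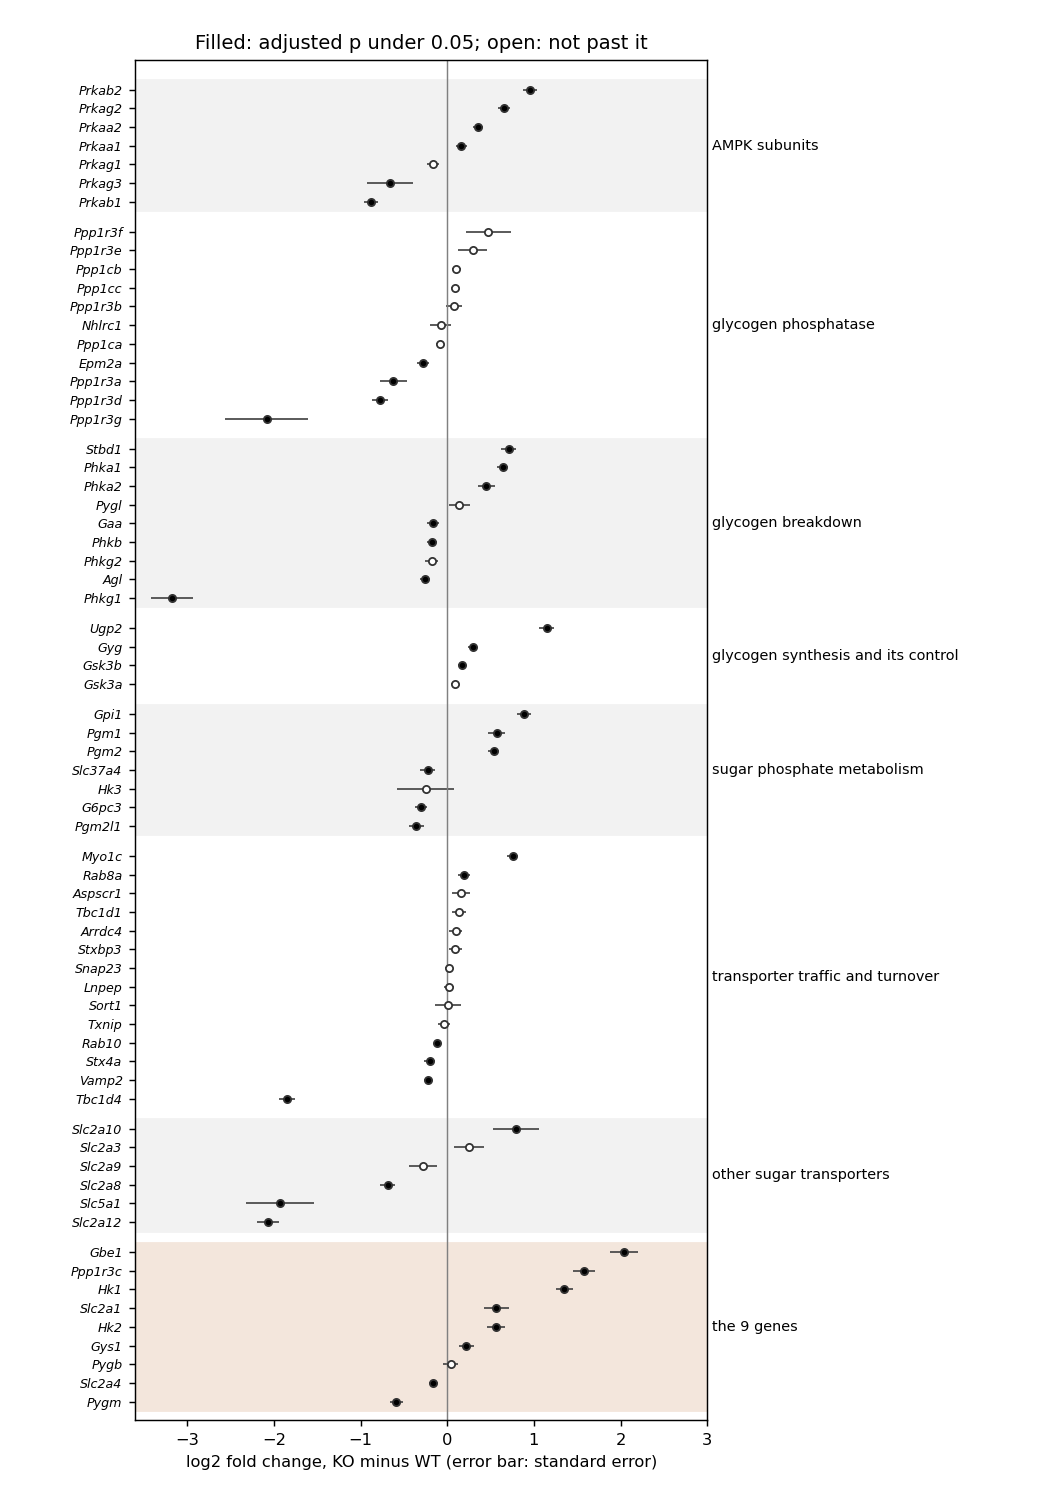
Log2 fold change of KO over WT with its standard error from edgeR for the 9 genes (shaded, bottom) and for other genes of the pathway that were tested, grouped by role; filled points passed an adjusted p of 0.05. Gbe1, Ppp1r3c and Hk1 lie past 1, and among the other genes drawn Ugp2 lies past 1 and Phkg1, Ppp1r3g, Slc2a12, Slc5a1 and Tbc1d4 below -1.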

How the data were processed

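RNA of ventricular wall from 6 WT and 6 KO mice, grouped by the genotype in the labels, was sequenced by the authors after poly-A selection. The submitters' processing notes name HISAT2 2.0.5 and mm10, while the gene identifiers and positions in the table belong to the C57BL/6NJ assembly. The authors deposited raw counts per gene from HTSeq, together with FPKM values per library. Their columns of fold changes, p-values and group means were not used. No strand setting is given in the sources used here.

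Counts were tested in R 4.3.3 with edgeR 4.0.16 (filterByExpr, 17155 of 43686 rows kept; TMM; robust quasi-likelihood test; Benjamini-Hochberg over all rows kept). The 2590 unannotated loci stayed in. Standard errors are the log2 fold change over the root of F. Ratios of FPKM were compared by exact permutation in Python with SciPy. The edgeR fit was also tried on simulated counts. Those had a far smaller share of changed genes than was called here and a single fixed dispersion, so they do not give its error rate in these data. Separate mice are not stated beyond the sample labels, so p-values measure the spread between these libraries. Between replicates of a genotype the chi-square over its degrees of freedom was 6.99 or more, and none was merged. The 9 genes and all lists were chosen with earlier results of these data known. Named were all 9 genes, Sdhaf4 and, in each role group, genes past the stricter thresholds and the 2 with the smallest p among those called; 1 gene of the list, kept in the counts, is not reported here. Alternatives were other normalizations, DESeq2 1.42.0, limma-voom (limma 3.58.1), other filters, a replicate block, leaving out libraries, and other gene lengths. Leaving out KO replicates 3 and 6 together and the other gene lengths were chosen after seeing the data.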

Additional observations from a re-analysis of the deposited data

Results flagged for a closer look

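Among 56 groups of 6 libraries examined (the 9 genes, the other named genes and the log2 ratios of the 3 pairs, in each genotype), 2 held a library far from the others by Dixon's criterion, and chance alone flags about 1 in 20 groups, here 2.8. Slc2a1 in KO replicate 6 was at 41.7 CPM, with the next KO heart at 27.9 CPM and the lowest at 21.6 CPM. Ppp1r3g in KO replicate 1 was at 0.964 CPM, with the next KO heart at 0.331 CPM, a range that rests on few counts.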

How the results depend on the processing

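The fits were repeated under 22 other settings, including each of the 12 libraries left out in turn. Slc2a1, Hk1, Hk2, Gbe1, Pygm and Ppp1r3c kept their direction and their call in every one of them, with log2 fold changes of 0.40 to 0.62, 1.27 to 1.41, 0.51 to 0.63, 1.94 to 2.14, -0.66 to -0.56 and 1.49 to 1.70. Leaving out a library gave 5 to 6 of the 9 genes higher and 1 to 2 lower. The low value of 1 came without KO replicate 2, when the adjusted p of Slc2a4 was 0.0513. Gys1 lost its call with upper quartile scaling (adjusted p = 0.0585), without a filter on low counts (0.0564), with limma-voom (0.0515), without KO replicates 3 and 6 (0.0771), with the replicate block, and without any of WT replicates 1, 2, 3, 5 and 6 or KO replicates 1, 5 and 6 (0.0655 to 0.109). Pygb, which passed in none of them, ranged from -0.036 (without KO replicate 6) to 0.10 (without KO replicate 1) with a library left out and was -0.085 without KO replicates 3 and 6. The cause was not tested. The other genes of the pathway gave 15 to 21 higher and 16 to 22 lower. The 3 pair ratios kept their direction and a p under 0.05 in every alternative, with an exact permutation p of at most 0.0312, which is the smallest that the paired form allows.

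No pairing of the libraries by replicate number was seen. The correlations of deviations of same-numbered libraries lay between -0.162 and 0.0243, and 1 of 6 pairs correlated best with its own number. Such correlations cannot exclude a pairing by litter or handling. With the replicate number as a block, 5 of the 9 genes were higher and 2 lower (Gys1, adjusted p = 0.0820; Slc2a4, 0.0499). Counts of a few reads limit Slc5a1 and Ppp1r3g, and the FPKM order depends on gene length.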
